A study of Mus musculus with 6 samples.

Results

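The neuropeptides VIP and PACAP and their 3 receptors are encoded by Vip, Adcyap1, Vipr1, Vipr2 and Adcyap1r1. These 5 genes were taken by symbol from a table of 45777 genes, and all 5 were present and passed the filter on low counts. RNA had been sequenced from the anterior cingulate cortex, a frontal midline area, in mice of the inbred strain BALB/c. The stress group, labelled smSDS, had 5 days of social defeat, in which a mouse is subordinated by an aggressive one, and the non-stress group, labelled NS, had none. Each group had 3 libraries, with 41623899 to 44882821 counts in the stress libraries and 41976809 to 47212982 in the non-stress libraries. The labels state no age and no sex, and do not say whether animals were pooled, so p-values measure the spread between these libraries, which may be technical.

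VIP and PACAP are related peptides of the secretin family. Vipr1 and Vipr2 encode VPAC1 and VPAC2, which bind both peptides about equally well, and Adcyap1r1 encodes PAC1, which prefers PACAP. All 3 are class B G protein-coupled receptors that act through Gs to raise cyclic AMP, which activates protein kinase A and the transcription factor CREB, and PAC1 can also act through phospholipase C. In the cortex VIP marks a class of GABAergic interneurons that mainly inhibit other interneurons, while PACAP is made largely by excitatory neurons and is studied as a peptide of stress responses.

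The start regions of both peptide genes and of both VPAC receptor genes are shown because the peptides and the receptors differ in them. The series title names cyclic AMP signalling, and the sequence that CREB binds best is TGACGTCA. RefSeq's start regions (GRCm38.p6) cover 250 bases before to 50 bases after each start and matched all 5 genes, with 2 annotated starts for Adcyap1. Each sequence is written 5′ to 3′ on the plus strand, and capitals mark TGACGTC or, where that is missing, the shorter core TGACG on either strand (CGTCA when it lies on the minus strand).

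Vip, chr10:5638968-5639267: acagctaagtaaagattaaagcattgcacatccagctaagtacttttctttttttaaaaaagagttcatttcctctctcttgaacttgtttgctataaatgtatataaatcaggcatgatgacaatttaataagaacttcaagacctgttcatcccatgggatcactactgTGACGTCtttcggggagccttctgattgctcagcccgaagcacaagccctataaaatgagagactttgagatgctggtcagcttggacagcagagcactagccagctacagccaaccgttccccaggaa
Adcyap1, chr17:93198767-93199066: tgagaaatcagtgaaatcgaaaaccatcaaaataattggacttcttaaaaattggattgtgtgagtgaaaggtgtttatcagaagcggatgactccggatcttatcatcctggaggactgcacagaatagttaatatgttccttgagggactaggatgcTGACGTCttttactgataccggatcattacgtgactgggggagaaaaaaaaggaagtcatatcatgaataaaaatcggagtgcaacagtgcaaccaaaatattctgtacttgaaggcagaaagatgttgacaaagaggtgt
Vipr1, chr9:121642466-121642765: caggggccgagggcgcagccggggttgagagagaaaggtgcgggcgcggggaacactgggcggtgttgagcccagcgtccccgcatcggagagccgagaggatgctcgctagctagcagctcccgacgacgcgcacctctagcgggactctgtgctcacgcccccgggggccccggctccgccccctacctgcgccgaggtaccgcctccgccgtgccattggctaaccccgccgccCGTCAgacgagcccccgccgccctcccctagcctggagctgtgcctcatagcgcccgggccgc
Vipr2, chr12:116077476-116077775: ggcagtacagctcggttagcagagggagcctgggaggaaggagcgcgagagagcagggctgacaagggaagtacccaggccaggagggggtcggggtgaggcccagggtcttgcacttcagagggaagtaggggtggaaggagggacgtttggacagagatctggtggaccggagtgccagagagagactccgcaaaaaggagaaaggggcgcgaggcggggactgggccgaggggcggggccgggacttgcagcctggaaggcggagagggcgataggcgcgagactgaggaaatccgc

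Both peptide genes held TGACGTC, 79 bases before the start of Vip and 91 bases before the Adcyap1 start shown (242 before its other start). That sequence, on either strand, was present in 3.21% of 32817 such windows, and the full TGACGTCA, in which it is contained, was present in 1.79% of them and in 0 of the 5 genes. Vipr1 held only the core TGACG, 13 bases before its start, as did 20.8% of windows, a share that includes the longer matches. Vipr2 and Adcyap1r1 (chromosome 6) held no match. The windows also differed in composition, with 41.7% G and C in Vip and 39.0% in the Adcyap1 window shown, against 73.7% in Vipr1, 65.3% in Vipr2 and 67.3% in Adcyap1r1. The median over all windows was 52.7%. A match in these letters describes the sequence and does not show a site in use.

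Set against transcript length, the 5 genes spanned a wide range of levels. Levels between genes are given as CPM (counts scaled to a library's total) per kilobase of the longest GENCODE transcript. Vip stood at 37.8 ± 1.99 in stress and 34.9 ± 5.84 in non-stress (SD, n = 3 each), above 87.3% of 17174 tested genes. Adcyap1 followed at 8.10 ± 0.713 in stress and 7.90 ± 0.345 in non-stress, and Adcyap1r1 at 6.46 ± 0.377 in stress and 7.36 ± 0.474 in non-stress. The ranges of Adcyap1 and Adcyap1r1 overlapped in the non-stress libraries, where Adcyap1 lay at 7.62 to 8.28 and Adcyap1r1 at 6.85 to 7.78, but not in the stress libraries, at 7.54 to 8.91 and 6.12 to 6.87. The other neighbours in the order of levels did not overlap in either group. Vipr1 was lower still, at 2.39 ± 0.162 in stress and 3.10 ± 0.0746 in non-stress, and Vipr2 was the scarcest, at 0.272 ± 0.0537 in stress and 0.191 ± 0.0349 in non-stress, above 8.08% of tested genes.

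PAC1 was therefore the main receptor transcript per length in every library. Of the summed level of the 3 receptor genes, Adcyap1r1 made up 70.1% to 71.4% in stress and 68.0% to 70.6% in non-stress. The share of Vipr1 was 25.9% to 26.6% in stress and 28.0% to 30.1% in non-stress, and that of Vipr2 was 2.52% to 3.82% in stress and 1.42% to 2.08% in non-stress. The ranges of the Vipr1 and Vipr2 shares did not overlap between the groups. The shares are computed from the same counts as the gene levels and are no separate evidence, and Vipr2 had 25 to 47 counts per library. In their levels, 17.9% of all tested genes did not overlap between the groups. Set against 12 other class B receptor genes, the 3 together made up 39.0% to 40.4% of the class B level in stress and 42.8% to 45.5% in non-stress.

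**Figure D1:**
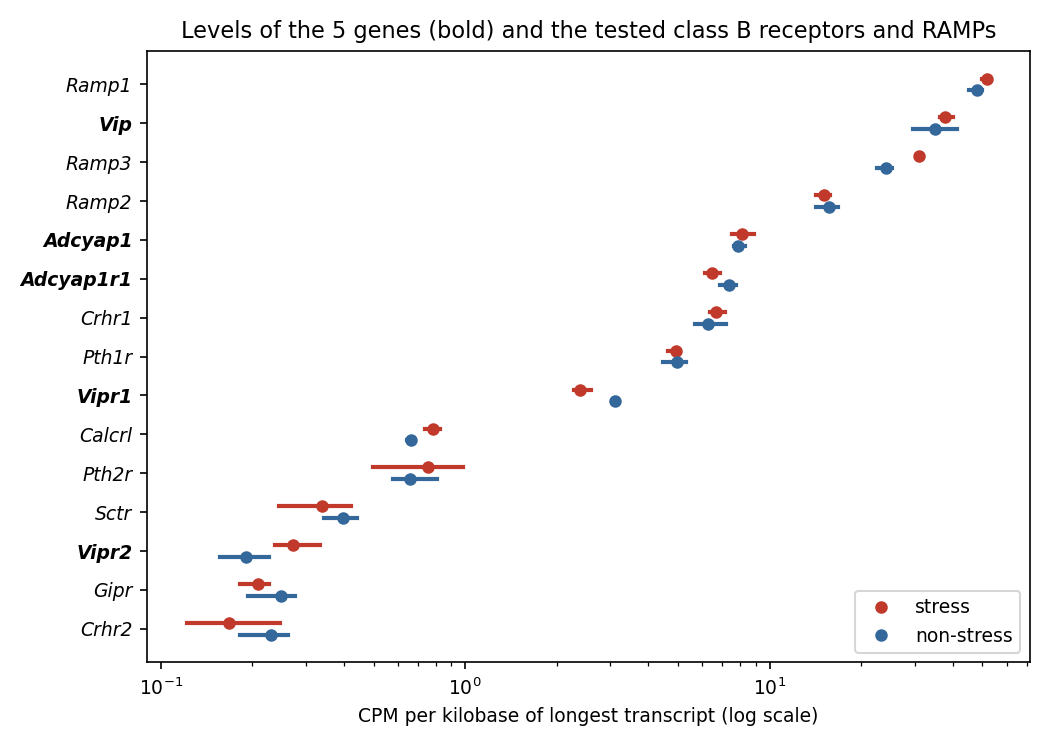
Levels in CPM per kilobase of the longest transcript, on a log axis, of the 5 genes (bold) and of the class B receptor and RAMP genes that were tested. Points are means of 3 libraries and lines run from the lowest to the highest library. Vip lies highest of the 5, Adcyap1r1 lies level with the corticotropin-releasing hormone receptor gene Crhr1, and Vipr2 lies among the scarce receptors.

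The comparison of stress with non-stress asks which of these transcripts differ after repeated defeat. With edgeR's quasi-likelihood fit of 19227 genes, 0 of the 5 had an adjusted p (Benjamini-Hochberg) under 0.05, and 1 gene in all, or 0.00520%, did. At an unadjusted p under 0.05 there were 2 of the 5, both receptors and both lower in stress, against 6.27% of all genes lower, 5.80% higher and 12.1% in either direction. DESeq2 called 1 of the 5, Vipr1, among 107 genes, which is 1.00% of those it adjusted, and limma-voom called 0 of the 5 and 0.0104% of all genes. Without non-stress 1, which lay apart from the other non-stress libraries, edgeR called 0 of the 5 and 3.85% of all genes. The groups did not overlap for 2 of the 5, with Vipr1 lower and Vipr2 higher in stress. Over all genes 17.9% did not overlap, 9.20% lower and 8.70% higher. The median log2 fold change of the 5 was 0.04, against 0.00 over all genes (-5e-04).

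**Figure D2:**
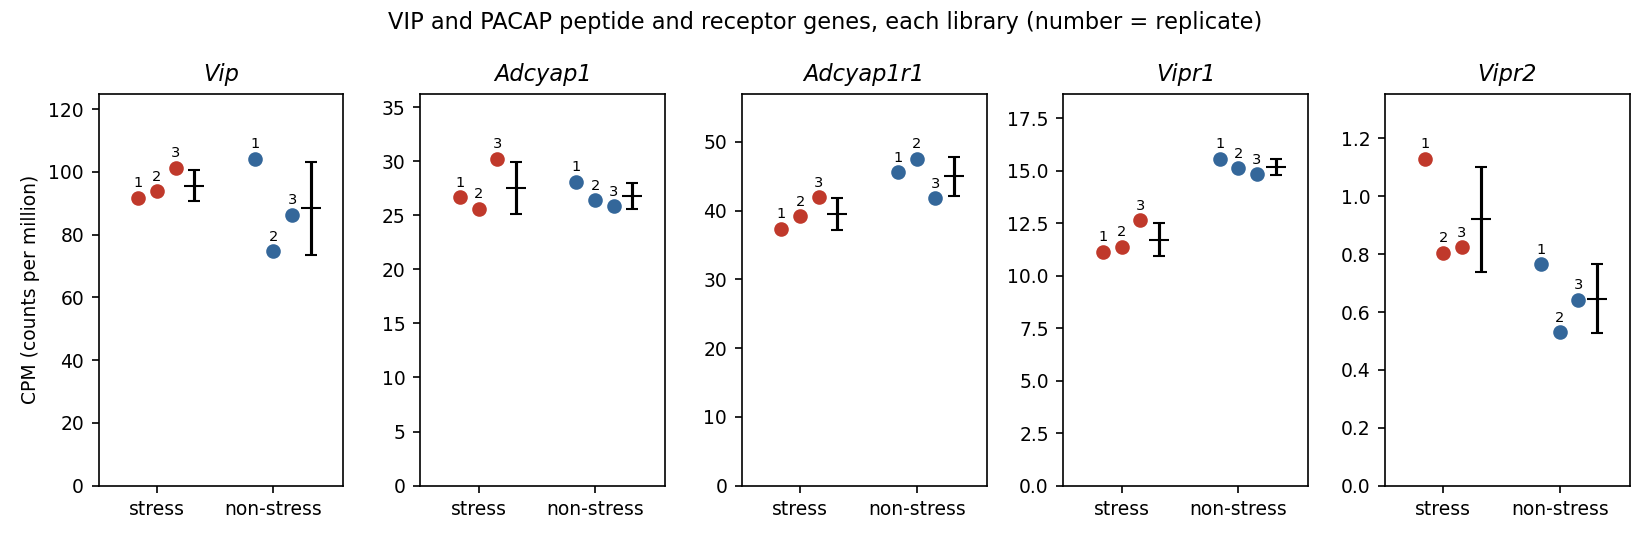
CPM of each gene in each library, with stress on the left and non-stress on the right of every panel. Numbers are replicate numbers, for which the labels state no pairing, and the black bar is the mean ± SD of 3 libraries. All 3 stress libraries lie below all 3 non-stress libraries for Vipr1, all 3 lie above for Vipr2, and the groups overlap for Vip, Adcyap1 and Adcyap1r1.

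Among the peptides, Vip had 3819, 4073 and 4547 counts in stress 1, 2 and 3, which is 91.8, 93.7 and 101 CPM, and 4488, 3530 and 3625 counts in non-stress 1, 2 and 3, which is 104, 74.8 and 86.4 CPM. The single highest value was in non-stress 1 and the lowest in non-stress 2, so the non-stress libraries enclosed all of the stress libraries. Vip averaged 95.6 ± 5.04 CPM in stress and 88.4 ± 14.8 CPM in non-stress (SD, n = 3 each), a log2 fold change of 0.11 (SE 0.10, edgeR adjusted p = 0.671). The 95% interval of the fold ran from 0.925 to 1.27. The value rested on single libraries, at 0.25 without non-stress 1 (adjusted p = 0.0767) and 0.01 without non-stress 2. It was -0.04 once smooth trends on GC content and transcript length were taken out of each library (adjusted p = 0.806). The Vip transcript has the lowest GC content of the 5, at 38.7%.

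Non-stress 1 also stood apart from the other non-stress libraries beyond Vip. On principal component 1 of all tested genes, with 34.5% of the variance, the stress libraries lay at -20.4 to -14.9 and non-stress 1 lay near them at -11.7, away from non-stress 2 and 3 at 37.4 and 27.4. Calb2, which encodes calretinin and marks part of the VIP interneurons, had 843, 874 and 927 counts in stress and 1795, 804 and 652 counts in non-stress 1, 2 and 3. Gfap, an astrocyte filament gene, had 549, 544 and 650 counts in stress and 1148, 251 and 199 in non-stress. Calb2 and Gfap were singled out after their values were seen. Their part, and that of library composition, in the Vip values was not tested.

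Relative to the GABA-synthesising enzyme genes Gad1 and Gad2, summed within each library, Vip counts were 20.2%, 21.0% and 21.8% in stress and 23.0%, 15.8% and 18.1% in non-stress. The stress libraries lay close together, inside the span of the non-stress ones. The mean log2 ratio was 0.16 higher in stress, with p = 0.4 by an exact two-sided permutation test over the 6 libraries, where the smallest p that 3 against 3 allows is 0.1. With 10 other GABAergic markers as denominator it was 0.05 (exact p = 0.8). Gad1, which had most of the summed counts, had a log2 fold change of -0.11 itself, and Gad2 had 0.14 (edgeR adjusted p = 0.402 and 0.426). Relative to Gad1 and Gad2 without non-stress 1 the difference was 0.31 (exact p = 0.1, the smallest possible), and without non-stress 2 it was 0.04. In tissue, a difference in the number of VIP cells and a difference in Vip RNA per cell cannot be told apart.

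Adcyap1 had 1110, 1112 and 1356 counts in the stress libraries, which is 26.7, 25.6 and 30.2 CPM, and 1211, 1247 and 1085 counts in the non-stress libraries, which is 28.1, 26.4 and 25.8 CPM. Stress 3 was the highest and stress 2 the lowest of all 6, and the groups overlapped throughout. Means were 27.5 ± 2.42 CPM in stress and 26.8 ± 1.17 CPM in non-stress (SD, n = 3 each). The log2 fold change was 0.04 (SE 0.08, edgeR adjusted p = 0.864), with a 95% interval of the fold from 0.914 to 1.15, and it was -0.03 without stress 3.

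Against the vesicular glutamate transporter gene Slc17a7, a marker of cortical excitatory neurons, Adcyap1 counts were 2.36%, 2.21% and 2.65% in stress and 2.38%, 2.05% and 2.30% in non-stress. The log2 ratio was 0.10 higher in stress (exact two-sided permutation p = 0.5), and the direction turned with 12 other excitatory markers as denominator (-0.03, exact p = 0.7).

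Among the receptors, Vipr1 was the gene of the 5 with the clearest separation. It had 464, 495 and 567 counts in stress, which is 11.1, 11.4 and 12.6 CPM, and 671, 714 and 623 counts in non-stress, which is 15.6, 15.1 and 14.8 CPM. The highest stress library lay below the lowest non-stress library, and the 3 non-stress libraries, which differed in Vip, were close together here. Vipr1 averaged 11.7 ± 0.796 CPM in stress and 15.2 ± 0.366 CPM in non-stress (SD, n = 3 each). The log2 fold change was -0.37 (SE 0.08), or 1.29-fold lower in stress, with a 95% interval of the fold from 0.685 to 0.873.

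For Vipr1, edgeR gave an unadjusted p of 0.000897, which ranked 50 among 19227 genes, and an adjusted p of 0.338. DESeq2's Wald test gave an adjusted p of 0.0397 with the same log2 fold change of -0.37, and over all 16 alternatives the adjusted p ran from 0.0397 to 0.732. The direction held in all 16, with log2 fold changes from -0.43 to -0.24. The value nearest 0 came with the GC and length trends removed and non-stress 1 left out (adjusted p = 0.114), and with the trends removed alone it was -0.28 (adjusted p = 0.252). The Vipr1 transcript has the highest GC content of the 5, at 55.2%.

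Adcyap1r1 had 1555, 1701 and 1882 counts in stress, which is 37.4, 39.1 and 41.9 CPM, and 1964, 2244 and 1756 counts in non-stress, which is 45.6, 47.5 and 41.8 CPM. Stress 3 and non-stress 3 met at nearly the same value, and the other stress libraries lay below the other non-stress libraries. The means were 39.5 ± 2.30 CPM in stress and 45.0 ± 2.89 CPM in non-stress (SD, n = 3 each), a log2 fold change of -0.19 (SE 0.07, unadjusted p = 0.0193, adjusted p = 0.363 by edgeR). The 95% interval of the fold ran from 0.792 to 0.974. It was -0.13 once the GC and length trends were removed, and -0.11 with non-stress 1 left out as well. Splice forms of PAC1, which differ in signalling, are summed in a gene count.

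Vipr2 was the one receptor gene with higher values in stress, on few counts. It had 47, 35 and 37 counts in stress, which is 1.13, 0.806 and 0.824 CPM, and 33, 25 and 27 counts in non-stress, which is 0.766, 0.530 and 0.643 CPM. Stress 2 exceeded non-stress 1 by 2 counts before scaling. Exact Poisson 95% intervals, which cover counting error only, were 24.4 to 48.7 counts for stress 2 and 22.7 to 46.3 for non-stress 1, so these libraries could not be separated at this depth.

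Means of Vipr2 were 0.920 ± 0.182 CPM in stress and 0.646 ± 0.118 CPM in non-stress (SD, n = 3 each). The log2 fold change was 0.51 (SE 0.26, edgeR adjusted p = 0.459), and the 95% interval of the fold ran from 0.953 to 2.13. Without stress 1, the highest library, it was 0.34 (adjusted p = 0.789), and DESeq2's unadjusted p was 0.210, with no adjusted value. An antisense gene, Gm20658, lies within the Vipr2 locus on the opposite strand but shares 0 exonic bases with it in GENCODE. The exons of the other 4 genes overlap those of no other annotated gene.

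Outside the cortex, VPAC2 is known from the hypothalamic clock nucleus. Of 7 hypothalamic marker genes, summed levels were 4.01 to 4.21 CPM in stress and 2.75 to 4.13 CPM in non-stress, and 0 of 5 tested passed by edgeR, DESeq2 or limma-voom. Of the 5, Pmch alone had an unadjusted p under 0.05 (log2 fold change 0.57, edgeR adjusted p = 0.388), against 12.1% of all genes. It had 52, 52 and 44 counts in stress and 33, 43 and 26 in non-stress. Avp came next (0.88, adjusted p = 0.460). Of 8 pituitary genes, summed levels were 3.79 to 14.2 CPM in stress and 1.26 to 3.18 CPM in non-stress, with 1 of the 8, Fshb, at 0 in all libraries. The growth hormone gene Gh had 337, 400 and 30 counts in stress and 9, 6 and 0 in non-stress, and Pomc had 165, 148 and 118 in stress and 108, 67 and 46 in non-stress. Neither passed edgeR's threshold with all libraries (adjusted p = 0.285 for Gh and 0.344 for Pomc). Prl, the prolactin gene, had 31, 39 and 7 counts in stress and 0 in each non-stress library, too few to be tested with all libraries. Without non-stress 1, edgeR called Gh, Pomc and Prl (adjusted p = 0.0302, 0.00761 and 0.0326), against 3.85% of all genes. The part of such tissue in the Vipr2 counts was not tested.

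**Figure D3:**
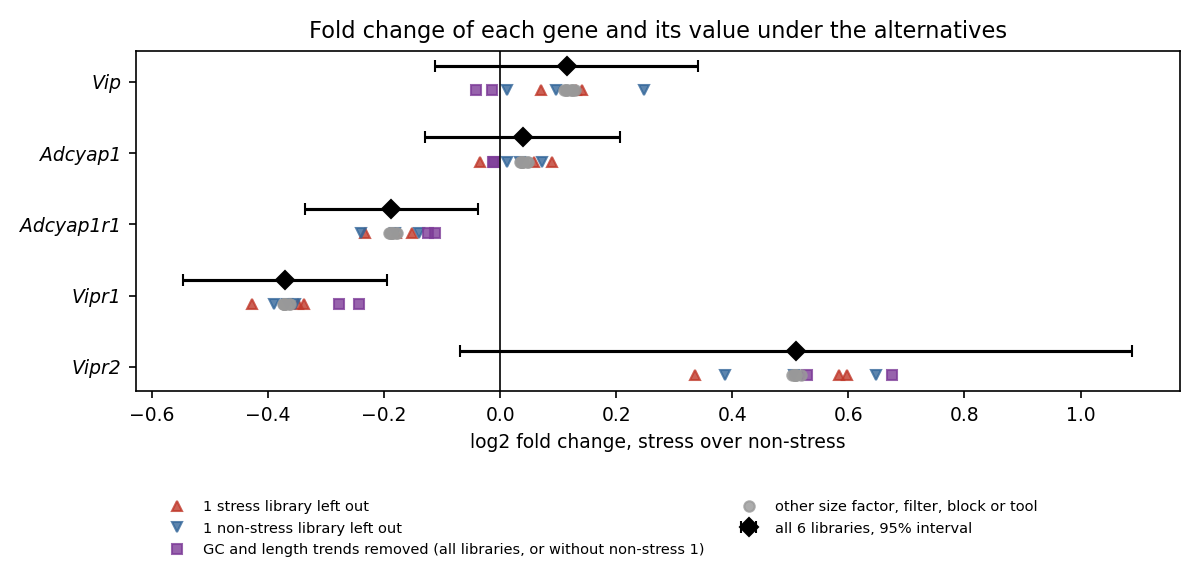
Log2 fold change of each gene, stress over non-stress. Black diamonds with lines are the edgeR estimate from all 6 libraries and its 95% interval, and the symbols under each are the same value under each alternative. Vipr1 and Adcyap1r1 lie below 0 and Vipr2 above 0 under every alternative shown, while the values of Vip and Adcyap1 fall on both sides of 0.

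The VPAC receptors were also set against each other within each library. Vipr2 counts were 10.1%, 7.07% and 6.53% of Vipr1 counts in stress and 4.92%, 3.50% and 4.33% in non-stress. Every stress library was above every non-stress library, which follows from Vipr1 being lower and Vipr2 higher in each stress library and is no separate evidence. Per kilobase, Vipr1 was 6.81 to 10.6 times as high as Vipr2 in stress and 14.0 to 19.7 times as high in non-stress. Vip was at 4.61, 4.91 and 4.49 times the Adcyap1 level per kilobase in stress and at 4.97, 3.79 and 4.48 times in non-stress, and these ranges overlapped.

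For each of the 5 genes, the tested genes with the most similar profile over the 6 libraries were found by Pearson's r of log2 CPM among 13097 genes. These are descriptions of 6 points that share library, depth and group. Closest to Vip were Rbbp7, Naa25 and Styx (r = 0.99 each), and closest to Adcyap1 were Tmem116, Ubxn8 and Mchr1 (0.98, 0.97 and 0.97). Cdv3 (1.00), Tigar (0.99) and Tbrg4 (0.99) were closest to Vipr1, and Psme1 (0.99), Atp11b (0.99) and Ppp2r3a (0.99) to Vipr2. Scarb1, the muscarinic receptor gene Chrm1 and Atp9b were closest to Adcyap1r1 (0.99 each).

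Other class B receptors and the RAMPs, accessory proteins that associate with several of these receptors, gave 0 of 10 tested members past edgeR's threshold. DESeq2 called 1, against 1.00% of all genes it adjusted, and limma-voom called 0. At an unadjusted p under 0.05 by edgeR there were 2, both higher, against 5.80% of all genes higher. Of the 10, 5 lay above and 5 below 0, with a median log2 fold change of 0.04. The groups did not overlap for 3 of the 10, or 30%, all higher in stress, against 17.9% of all genes and 8.70% higher. Ramp3 stood at 41.3 ± 1.03 CPM in stress and 32.1 ± 1.90 CPM in non-stress (log2 fold change 0.36, edgeR adjusted p = 0.166), and it passed by DESeq2 (adjusted p = 0.000870) and by edgeR without non-stress 1 (0.31, adjusted p = 0.0152). Ramp1 stood at 120 ± 4.09 CPM in stress and 111 ± 5.44 CPM in non-stress, and the adrenomedullin and CGRP receptor gene Calcrl at 3.84 ± 0.215 CPM in stress and 3.23 ± 0.0702 CPM in non-stress. The other ligand genes of the secretin family, Sct, Ghrh, Gcg and Gip, were too scarce to test, with at most 9 counts in any library.

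The machinery that releases and trims such peptides gave 0 of 15 past the threshold by edgeR, DESeq2 or limma-voom. In the edgeR fit 4 had an unadjusted p under 0.05, all higher, against 5.80% of all genes higher. There were 8 above and 7 below 0, with a median of 0.00. The groups did not overlap for 26.7%, all higher, against 8.70% of all genes higher. Pam, the enzyme that amidates the ends of peptides such as VIP and PACAP, was not among them, as its groups overlapped. It stood at 63.4 ± 3.79 CPM in stress and 50.3 ± 8.29 CPM in non-stress (log2 fold change 0.33, edgeR adjusted p = 0.345). Without non-stress 1, edgeR called 2 genes of the list, both higher, and 3.85% of all genes. They were Pam (log2 fold change 0.48, adjusted p = 0.00231) and Pcsk1 (0.26, adjusted p = 0.0357). The granule protein gene Scg3 stood at 257 ± 3.18 CPM in stress and 236 ± 9.63 CPM in non-stress. Dpp4, a peptidase that shortens VIP and PACAP, stood at 9.82 ± 0.841 CPM in stress and 8.05 ± 0.548 CPM in non-stress (log2 fold change 0.29, adjusted p = 0.351).

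Downstream of the receptors, the 25 genes of cyclic AMP transduction gave 0 past edgeR's threshold, 2 by DESeq2 and 0 by limma-voom. DESeq2 called 1.00% of all genes it adjusted. An unadjusted p under 0.05 by edgeR was reached by 4, all lower, against 6.27% of all genes lower. There were 8 above and 17 below 0, with a median of -0.06. The adenylyl cyclase gene Adcy1 stood at 223 ± 5.02 CPM in stress and 252 ± 6.59 CPM in non-stress (log2 fold change -0.18, edgeR adjusted p = 0.344). Adcy9, another cyclase gene, stood at 37.5 ± 0.219 CPM in stress and 44.5 ± 2.67 CPM in non-stress (-0.25, adjusted p = 0.344), and DESeq2 called both (adjusted p = 0.00602 for Adcy1 and 0.0395 for Adcy9). Without non-stress 1, edgeR also called Adcy1 (-0.19, adjusted p = 0.0359). The CREB coactivator gene Crtc2 stood at 13.0 ± 0.873 CPM in stress and 16.2 ± 2.82 CPM in non-stress. The groups did not overlap for 16.0% of the list, near the 17.9% over all genes.

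Genes that cyclic AMP and calcium induce in neurons gave 0 of 19 past edgeR's threshold, 5 by DESeq2, all lower, and 0 by limma-voom. DESeq2 called 1.00% of all genes it adjusted. By edgeR 7 of the 19 had an unadjusted p under 0.05, all lower, against 6.27% of all genes lower. 9 lay above and 10 below 0, with a median of -0.05, and the groups did not overlap for 8, or 42.1%, of which 7 were lower, against 17.9% of all genes and 9.20% lower. The nuclear receptor gene Nr4a1 stood at 34.8 ± 0.918 CPM in stress and 54.1 ± 6.58 CPM in non-stress (log2 fold change -0.64, edgeR adjusted p = 0.0944). Junb and Arc had log2 fold changes of -0.27 and -0.37, and edgeR called all 3 without non-stress 1 (adjusted p = 0.00176 for Nr4a1, 0.00987 for Junb and 0.0450 for Arc). In that fit 3.85% of all genes were called. That immediate early genes are lower in these stress libraries was known when the list was drawn up, so its direction is not independent evidence.

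Markers of the cells that make VIP lay on both sides of 0. Of 14 VIP interneuron markers, 0 passed by edgeR, DESeq2 or limma-voom. By edgeR 2 higher and 1 lower had an unadjusted p under 0.05, against 5.80% of all genes higher and 6.27% lower. The groups did not overlap for 14.3% of the list, against 17.9% of all genes. Values lay above 0 for 8 and below 0 for 6, with a median log2 fold change of 0.06. The summed level was 182 to 188 CPM in stress and 181 to 198 CPM in non-stress. That sum rests mostly on the most abundant genes of the list and does not measure the number of VIP cells. Adarb2, a marker of interneurons from the caudal ganglionic eminence, stood at 8.04 ± 0.278 CPM in stress and 5.76 ± 0.779 CPM in non-stress (log2 fold change 0.48, edgeR adjusted p = 0.344), and it passed without non-stress 1 (0.57, adjusted p = 0.0253). Crh stood at 13.7 ± 0.910 CPM in stress and 11.4 ± 0.682 CPM in non-stress, and Npas1 at 35.5 ± 2.59 CPM in stress and 41.8 ± 5.39 CPM in non-stress.

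The other lists of cell markers gave 0 genes past edgeR's threshold with all libraries. Of 13 other GABAergic markers, 4 lay above and 9 below 0 (median -0.09), with 2 higher and 5 lower at an unadjusted p under 0.05, which is 7 of 13 against 12.1% of all genes. The groups did not overlap for 46.2% of them, against 17.9% of all genes, with 2 higher and 4 lower. DESeq2 called 1, Sst, against 1.00% of all genes it adjusted. Sst had a log2 fold change of 0.27 and Dlx5 one of -0.30. Of 13 excitatory neuron markers, 8 lay above 0 (median 0.05). DESeq2 called 1 of them, Neurod6 (0.19 by edgeR), against the same 1.00%. There were 4 at an unadjusted p under 0.05, all higher, against 5.80% of all genes higher. The groups did not overlap for 7.69%, against 17.9% of all genes. Foxp2 had a log2 fold change of 0.25. Medians were -0.02 over 9 astrocyte, 10 oligodendrocyte and 7 microglia and immune markers and 0.00 over 9 endothelial and mural markers. They were 0.02 over 7 striatal markers and -0.17 over 4 choroid plexus and ependymal markers. In these 6 lists DESeq2 and limma-voom called 0. An unadjusted p under 0.05 by edgeR was found for 3 genes, against 12.1% of all genes. These were the astrocyte gene Aldh1l1 (-0.17), the pericyte gene Rgs5 (-0.14) and the dopamine receptor gene Drd2 (-0.85). Next in these lists by p came Aqp4 (0.08), Cspg4 (0.18), Csf1r (-0.12), Tmem119 (-0.12), Acta2 (0.27), Ppp1r1b (-0.12), Foxj1 (-0.27) and Folr1 (-0.22), all log2 fold changes. Among these named markers, edgeR called Neurod6 and Ppp1r1b without non-stress 1 (adjusted p = 0.0192 and 0.0313), against 3.85% of all genes. As a check of the labelled cortex, Slc17a7 had 47073 to 51132 counts in stress and 47116 to 60799 in non-stress, and the T-cell gene Cd8a was at 0 in all libraries.

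**Figure D4:**
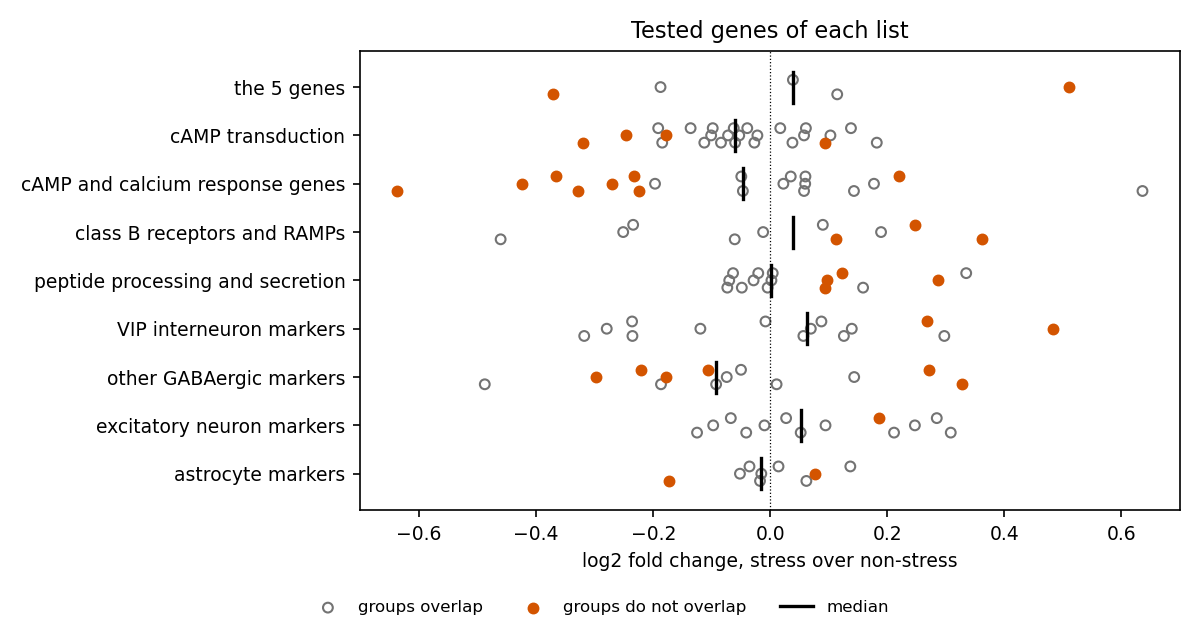
Log2 fold changes, stress over non-stress, of the tested genes of each list. Filled points are genes whose stress and non-stress libraries do not overlap, open points are the others, and black lines are medians. Medians lie between -0.09 and 0.06, and genes without overlap fall on both sides of 0 in 4 of the 8 lists below the 5 genes.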

How the data were processed

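The authors deposited whole-number counts of each gene in 1 table, a column per library. The submitters' processing notes name Trimmomatic 0.38, HISAT2, StringTie and the build GRCm38 (mm10). For the counting step, its annotation and strandedness, no method is stated in the sources used here. Per the labels' protocols, libraries came from a SMARTer low-input kit and TruSeq construction. Of 45777 genes, filterByExpr kept 19227, scaled by TMM (factors 0.996 to 1.00) and tested with edgeR 4.0.16 in R 4.3.3, quasi-likelihood, two-sided, group as the single term, Benjamini-Hochberg over all genes tested. CPM use library totals. DESeq2 1.42.0 (independent filtering at 0.05) and limma 3.58.1 were alternatives, with other size factors and filters, each library left out and the replicate number as a block. Removal of GC and length trends, over 17174 genes, was chosen after seeing the data. On simulated counts for 19227 genes, edgeR recovered 27.3% of genes changed 1.25-fold and 62.7% of those changed 1.5-fold. Genes were drawn independently there, with no library set apart as non-stress 1 was, so recovery in the real libraries may differ.

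The 5 genes were fixed by name, and they and the lists were chosen with earlier results of these data known. Of each list the 3 genes of smallest p were named (2 for lists of other cell types), with pituitary genes and tissue check markers besides and 1 gene not reported here, and likeness was ranked by Pearson's r among genes of at least 1 CPM. The labels do not state whether libraries with the same replicate number are paired. Coordinates are RefSeq's for GRCm38 and transcripts GENCODE M21's.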

Additional observations from a re-analysis of the deposited data

How the results depend on the processing

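No alternative moved Vipr1, Vipr2 or Adcyap1r1 to the other side of 0. DESeq2 brought Vipr1 past the threshold (log2 fold change -0.37, adjusted p = 0.0397), so that 1 of the 5 genes was called and not 0; it was the only alternative to call any of the 5. With GC and length trends removed Vip was -0.041 and Adcyap1 -0.013, and with non-stress 1 also left out they were -0.014 and -0.011; the cause was not tested. Leaving out each library gave Vip 0.01 to 0.25, Adcyap1 -0.035 to 0.090, Vipr1 -0.43 to -0.34, Vipr2 0.34 to 0.65 and Adcyap1r1 -0.24 to -0.14. Vip over Gad1 and Gad2 was 0.162, and 0.046 with 10 other markers as denominator. Adcyap1 over Slc17a7 turned to -0.026 with 12 other markers as denominator.

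Over all genes, 1 passed with all 6 libraries, 0.00520% of those tested. Leaving out each library gave 1 to 756, the highest without non-stress 1 (577 higher and 179 lower). The count was 107 by DESeq2 (45 higher and 62 lower), 2 by limma-voom, 4 with the trends removed, and 1008 with the trends removed and non-stress 1 left out (446 higher and 562 lower). Of the genes in the lists, edgeR called 0 with all libraries and 20 without non-stress 1, where it called 3.85% of all genes. DESeq2 called 10 of them with all libraries, and 1.00% of all genes it adjusted.

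Libraries with the same replicate number did not deviate together (correlations of 0.02, -0.03 and 0.02), and 1 of 3 stress libraries correlated best with its own number. With the replicate block 2 genes passed and 0 of the 5. The filter of 50 counts in 3 libraries dropped Vipr2, so no value was given there. Depth limits Vipr2, whose counting error alone is 17.1% of a typical library's count, against 1.58% for Vip.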
